A study of Homo sapiens with 2 samples.

Results

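Deep intronic ATF1 peaks are the peaks that the deposited table places in an intron with the summit more than 10 kb from both ends of the assigned gene. They were chosen by position alone, with no measured value, and 1431 of the 15064 listed peaks met the rule (9.50%, 95% Clopper-Pearson interval 9.04 to 9.98%). They were 28.0% of the 5102 intronic peaks and 16.1% of the 8905 peaks assigned to genes over 20 kb long. The table comes from 1 chromatin immunoprecipitation (ChIP) library of HCT116 cells, a colon adenocarcinoma line, grown without a stated treatment, made with an antibody the labels name for 3xFlag-ATF1. How the tagged protein came into the cells is not stated, and peaks of untagged ATF1 would not be seen. The other sample is input DNA of the same line, not analysed here, and neither was the nonspecific rabbit IgG that the protocol names. Each group had 1 sample. All values below therefore describe 1 library: no test between conditions exists, no difference between classes of peaks was tested, and intervals cover counting error only. The library's total read number is unknown.

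ATF1 belongs to the CREB family of basic leucine zipper factors, whose dimers bind the cAMP response element (CRE) and are phosphorylated by protein kinase A and other kinases. Most known CRE are in promoters close to a transcription start. Introns of long genes can hold start sites of shorter transcripts, start sites of other genes that lie inside or across the host, and distal regulatory elements. The position of a deep intronic peak relative to the gene's outer ends does not separate these.

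The sequences below show what lay next to the strongest deep intronic summits that coincided with a start listed by RefSeq (GRCh38.p14, the assembly the hg38 name denotes). Each is the 150 bases before a start that was within 150 bp of a member's summit, printed 5′ to 3′ on the strand of transcription. Capitals mark the full CRE, TGACGTCA, or its half-site TGACG, which reads CGTCA on the other strand. The first 4 are the strongest members with a full CRE, the next 4 the strongest with a half-site only, and the last 2 the strongest with neither. MIR9-1HG is the current name of C1orf61, UFSP2 starts inside C4orf47, TCEAL3 inside LOC105373302 and ERCC6L inside PIN4.
IFRD1 (chr7:112450310-112450459, plus strand): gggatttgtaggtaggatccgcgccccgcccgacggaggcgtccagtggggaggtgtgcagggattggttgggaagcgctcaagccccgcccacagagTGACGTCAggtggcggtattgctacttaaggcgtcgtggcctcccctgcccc
ZBTB38 (chr3:141368354-141368503, plus strand): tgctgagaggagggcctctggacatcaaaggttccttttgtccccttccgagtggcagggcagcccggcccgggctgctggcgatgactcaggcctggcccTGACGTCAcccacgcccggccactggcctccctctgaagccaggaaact
MIR9-1HG (chr1:156421770-156421919, minus strand): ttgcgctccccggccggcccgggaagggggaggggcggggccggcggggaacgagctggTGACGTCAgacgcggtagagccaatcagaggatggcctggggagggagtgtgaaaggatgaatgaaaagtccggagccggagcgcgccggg
UFSP2 (chr4:185425965-185426114, minus strand): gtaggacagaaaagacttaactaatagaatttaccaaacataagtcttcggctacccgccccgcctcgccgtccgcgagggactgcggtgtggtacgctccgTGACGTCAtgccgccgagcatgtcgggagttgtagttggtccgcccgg
GPAM (chr10:112183766-112183915, minus strand): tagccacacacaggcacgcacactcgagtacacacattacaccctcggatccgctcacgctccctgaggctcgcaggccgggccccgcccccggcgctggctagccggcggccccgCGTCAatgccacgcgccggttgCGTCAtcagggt
TCEAL3 (chrX:103607813-103607962, plus strand): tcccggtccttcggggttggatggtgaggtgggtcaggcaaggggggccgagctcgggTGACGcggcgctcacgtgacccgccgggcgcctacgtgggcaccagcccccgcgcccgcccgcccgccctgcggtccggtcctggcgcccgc
POM121 (chr7:72924945-72925094, plus strand): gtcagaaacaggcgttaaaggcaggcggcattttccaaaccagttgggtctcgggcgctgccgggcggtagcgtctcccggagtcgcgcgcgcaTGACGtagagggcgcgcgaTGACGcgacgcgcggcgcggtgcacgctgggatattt
ERCC6L (chrX:72239028-72239177, minus strand): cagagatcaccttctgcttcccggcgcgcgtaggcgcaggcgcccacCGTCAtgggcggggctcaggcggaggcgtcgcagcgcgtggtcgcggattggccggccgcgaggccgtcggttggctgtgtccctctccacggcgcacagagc
RNF212B (chr14:23237786-23237935, plus strand): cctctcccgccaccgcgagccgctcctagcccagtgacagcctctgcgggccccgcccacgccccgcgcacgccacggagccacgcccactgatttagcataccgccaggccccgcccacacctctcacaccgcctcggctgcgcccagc
SNRNP200 (chr2:96305547-96305696, minus strand): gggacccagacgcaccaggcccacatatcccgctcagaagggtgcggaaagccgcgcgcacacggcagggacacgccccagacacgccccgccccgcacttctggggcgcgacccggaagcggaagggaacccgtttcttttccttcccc

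In the IFRD1 window the full CRE began 52 bases before the start, in ZBTB38 49, in UFSP2 48 and in MIR9-1HG 91. The summit, read at the centre of the motif, was 64.5 bp away at IFRD1, 17.5 bp at ZBTB38, 17.5 bp at UFSP2 and 14.5 bp at MIR9-1HG. The POM121 window held 2 half-sites, of which the nearer was 1 bp from the summit. The 2 half-sites of GPAM began 34 and 12 bases before the start, and the nearer was 5 bp from the summit. These matches are letters in a window and were not measured as binding sites.

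Among deep intronic peaks with a listed start within 150 bp, CRE half-sites went with fold enrichment. There were 145 such peaks, and 60 of their 300-base start windows (250 bases before to 50 after the start) held TGACG on either strand, or 41.4% (interval 33.3 to 49.9%). Over all 35097 listed start windows the share was 24.5%, and over the 5340 start windows at other listed peaks 42.5%. Of the 145 starts, 106 belonged to the assigned gene and 36.8% of these held a half-site (interval 27.6 to 46.7%). The 158 other listed starts of those genes held one in 22.2% (interval 15.9 to 29.4%). The half-site TGACG itself holds a CpG dinucleotide. The 106 windows had a median of 31 CpG and the 158 a median of 15, and the part of base composition in these shares was not tested. By fold enrichment of the peak, the share was 29.0% of 31 windows at 3 to 5-fold, 6 of 30 windows at 5 to 7-fold, 45.5% of 44 at 7 to 10-fold and 62.5% of 40 at 10-fold or more (interval 45.8 to 77.3%). Starts at all other listed peaks of 10-fold or more had a half-site in 62.7% of 2069 windows, so the strongest deep intronic starts were close to the rest of the table. Where a half-site was present, the median distance from the summit to the nearest one was 30.5 bp, and 49 of 60 were within 100 bp.

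**Figure D1:**
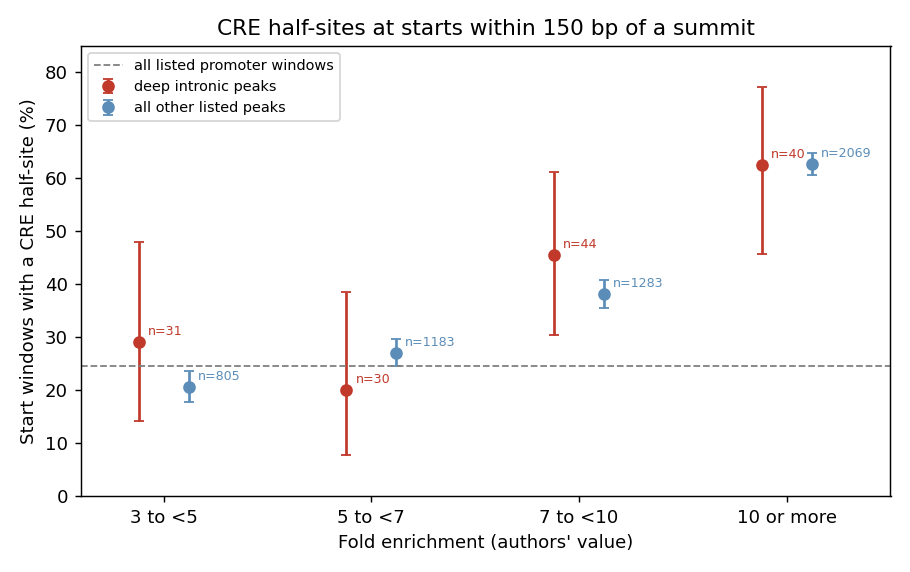
Share of 300-base start windows that hold the CRE half-site TGACG on either strand (vertical axis, percent) by fold enrichment of the peak (horizontal axis), for starts within 150 bp of a summit. Points are deep intronic peaks (red) and all other listed peaks (blue), bars are exact 95% intervals over windows and the dashed line is the 24.5% of all listed start windows. Both series are at about 62% to 63% at 10-fold or more.

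The full CRE was rarer. It was in 6 of the 145 windows (4.14%, interval 1.53 to 8.79%), against 649 of 35097 windows overall (1.85%), which is inside that interval, and 262 of the 5340 start windows at other listed peaks (4.91%). All 6 belonged to peaks of at least 10.13-fold. These were the 4 printed above, G3BP2, a stress granule protein gene (10.13-fold, 396 tags), and LOC105376714 (10.93-fold, 94 tags), where the motif was 363.5 bp from the summit. The AP-1 site TGANTCA, which FOS and JUN dimers bind, was in 4 of the 145 windows (2.76%), in 3.80% of start windows at other listed peaks and in 7.71% of all windows. Start windows at deep intronic summits had a median GC content of 69.7% against 58.7% over all windows, and a median of 30 CpG dinucleotides against 14. Start windows at other listed peaks were close to these, with a median GC content of 67% and 28 CpG. The half-site is part of the full CRE, so the first count includes the second.

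Deep intronic peaks were small in tags and close to the whole table in fold enrichment. Tags are the whole-number counts of reads per peak, and the deep intronic peaks held a median of 40 (quartiles 27 and 95.5, range 16 to 2786), against 162 over all listed peaks. Intronic peaks 1 to 10 kb from an end, in genes over 20 kb, had a median of 76 tags, and exonic peaks over 10 kb from both ends 65. Of the deep intronic peaks 442 had under 30 tags (30.9%, against 8.42% of all listed peaks), and 828 under 50 (57.9%). Median length was 994 bp, against 1551 bp overall. The authors' fold enrichment, a ratio whose denominator the file does not define, had a median of 6.94 (quartiles 5.58 and 8.42), against 6.97 overall. At 10-fold or more stood 187 deep intronic peaks (13.1%, interval 11.4 to 14.9%), against 23.9% of all listed peaks. By quintile of fold enrichment over the table, deep intronic peaks were 6.41% of the lowest, 13.1% of the middle and 4.35% of the highest. By quintile of tags they fell from 26.8% of the lowest to 2.66% of the highest. In the 1000 peaks of highest fold enrichment there were 23.

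Within the group, tags followed peak length (Spearman's rho 0.92 across 1431 peaks of 1 library) and fold enrichment ran slightly against tags (rho -0.19). This weak relation over all members does not describe the strongest peaks by fold enrichment. The highest, LOC400867 at 47.37-fold, had 130 tags, and the next, GPAM at 46.46-fold, had 603. Both counts were above the upper quartile of 95.5 tags. The peak with the most tags, PLEC with 2786, had 6.70-fold. As an example of the counting error, the peak of GRM8, a metabotropic glutamate receptor gene, had 45 tags with an exact 95% Poisson interval of 32.8 to 60.2.

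**Figure D2:**
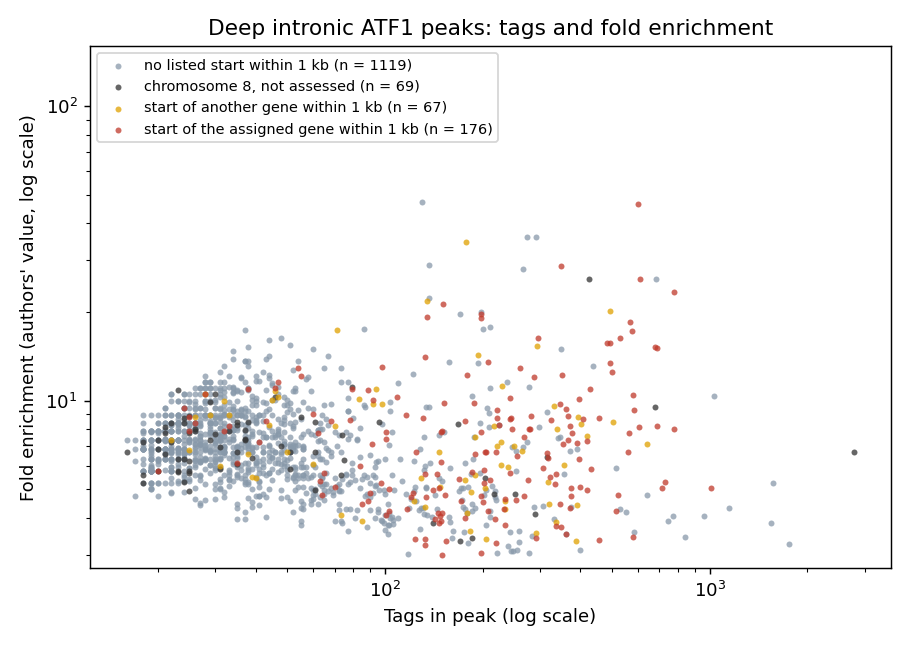
Tags per peak (horizontal axis, log scale) and the authors' fold enrichment (vertical axis, log scale) of the 1431 deep intronic peaks, 1 point per peak. Red and yellow points have a listed start of the assigned gene or of another gene within 1 kb of the summit, grey points have none, and black points lie on chromosome 8 and were not assessed. Grey points gather under 50 tags between 5-fold and 10-fold, and red points gather above 100 tags.

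A listed transcription start lay within 1 kb of the summit for 243 of the 1362 deep intronic peaks outside chromosome 8 (17.8%, interval 15.84 to 19.98%). The same share over all listed peaks outside chromosome 8 was 54.7%. It was 24.4% for intronic peaks 1 to 10 kb from an end in genes over 20 kb, and 33.5% for exonic peaks over 10 kb from both ends. For 176 deep intronic peaks the start belonged to the assigned gene itself and for 67 to another gene only. Of the 176 starts, 159 were inside the gene by RefSeq's own gene ends, and 17 were within 1 kb of its outermost 5′ end there, in genes whose span in the peak table differs. The start table names 814 of the hosts of the remaining 1119 peaks, so a start of the other 305 hosts could have been missed. Of all 1039 hosts that it names, 447 have more than 1 listed start. Any start of a named host that it does not list would have been missed too. The 69 peaks on chromosome 8 were not assessed.

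Peaks at a start carried far more tags. The 176 at a start of the assigned gene had a median of 206 tags (quartiles 123.5 and 360.25) and 7.13-fold enrichment, and the 67 at another gene's start 179 tags and 7-fold. The 1119 without a listed start had 35 tags (quartiles 26 and 59) and 6.94-fold. In these 3 groups 22.2%, 20.9% and 11.5% of peaks reached 10-fold. A start was within 1 kb of 2.67% of deep intronic peaks under 30 tags, 4.86% at 30 to 49, 12.3% at 50 to 99, 42.3% of those with at least 100 but under 200, and 64.7% at 200 tags or more (interval 57.4 to 71.5%). By fold enrichment the share was not monotonic, with 28.4% at 3 to 5-fold, 12.1% at 5 to 7-fold and 55.3% of the 38 peaks at 15-fold or more.

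**Figure D3:**
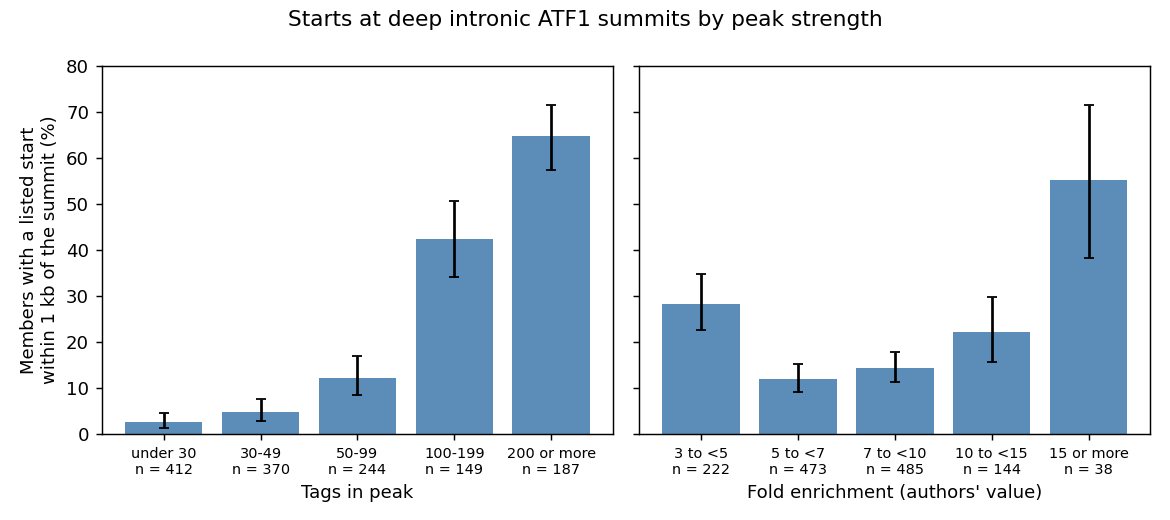
Share of deep intronic peaks outside chromosome 8 with a listed start within 1 kb of the summit (vertical axis, percent), by tags per peak (left) and by fold enrichment (right), with exact 95% intervals over peaks and the number of peaks under each bar. The share goes from 2.67% under 30 tags to 64.7% at 200 or more, and by fold enrichment it is lowest, 12.1%, at 5 to 7-fold.

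Summits at starts lay mostly just upstream. Of the 176 peaks at a start of the assigned gene, 131 had the summit upstream and 45 downstream of it, with a median position of -68.5 bp. Of the 67 at another gene's start, 47 were upstream, with a median of -72 bp. The 176 were nearer to the 5′ than to the 3′ end of the assigned gene in 63.1% of cases, against 47.7% of the 814 peaks without a start whose host has a known strand. Where the strand of both was known, the other gene ran against the host in 34 of 49 cases.

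**Figure D4:**
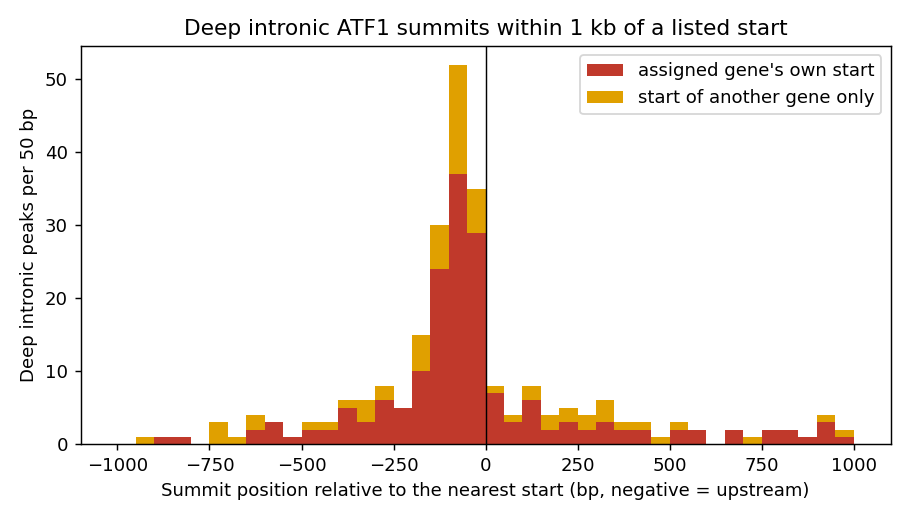
Number of deep intronic peaks per 50 bp (vertical axis) by summit position relative to a listed start (horizontal axis), for the 243 peaks with a start within 1 kb. Positions are in bp in the direction of transcription, with negative values upstream. The assigned gene's nearest start was used where it was within 1 kb, even if another gene's start was nearer. Otherwise the nearest start of another gene was used. Red is a start of the assigned gene (176) and yellow a start of another gene only (67). The tallest bars are between 100 bp upstream and the start.

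The strongest peak at a start of its own gene was that of GPAM, which encodes the mitochondrial acyltransferase of the first step of glycerolipid synthesis. It had 46.46-fold enrichment and 603 tags (chr10:112182930-112184341), with the summit 27 bp upstream of a listed start and 31603 bp from the nearer outer end of the 65532 bp gene given in the table. Its fold enrichment was above that of all but 1 deep intronic peak. POM121, a nuclear pore membrane protein gene, had 28.57-fold and 349 tags (chr7:72924337-72926167), 36 bp upstream of a start. POM121 has close copies in the genome, and the treatment of reads that fit several places is not stated, so its value is uncertain. KDM4C, a histone H3K9 demethylase gene, had 25.91-fold and 612 tags (chr9:6756928-6759273), 347 bp upstream. IFRD1, a transcriptional coregulator gene, had 23.36-fold and 778 tags (chr7:112449517-112451916). BBS12, a ciliary chaperonin-like gene, had 21.29-fold and 151 tags (chr4:122732123-122733092), with an end of the pseudogene CETN4P 15 bp from the summit. ZBTB38, which encodes a reader of methylated DNA, had 19.62-fold and 197 tags (chr3:141367744-141369199), at a start 63 bp downstream of the summit.

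Further peaks at a start of the assigned gene follow as examples. E2F3, an S-phase transcription factor gene, had 15.16-fold and 677 tags, with the summit at -107 bp from a listed start. RBPJ, the DNA-binding factor of Notch signalling, had 15.75-fold and 482 tags, 308 bp upstream. SRSF11, a splicing factor gene, had 16.29-fold and 296 tags, 21 bp upstream. These 3 are named after their values were seen. SNRNP200, which encodes the helicase of the U5 small nuclear ribonucleoprotein, had 19.04-fold and 197 tags, but its start was the outermost one in RefSeq, so the peak is deep only by the longer gene of the peak table. MAPK6, an atypical MAP kinase gene, had 13.38-fold and 492 tags, 41 bp upstream of a start. NR3C1, the glucocorticoid receptor gene, had 5.07-fold but 712 tags in a peak of 3709 bp, 9 bp upstream.

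At 67 peaks the assigned gene was not the one with a start at the summit, and only 6 of those other genes had a row of their own in the table used here. The biotype of the other gene was protein-coding for 33 and long noncoding RNA for 34. The peak assigned to LOC105373302 (34.57-fold, 178 tags, chrX:103607319-103608426) lay 81 bp from the start of TCEAL3, a transcription elongation factor A-like gene. The one assigned to PIN4 (21.85-fold, 135 tags, chrX:72238633-72239671) lay 67 bp from the start of ERCC6L, a helicase of the mitotic chromosome bridges. PRKAR1A, the regulatory subunit of protein kinase A, was listed with a peak of 20.15-fold and 494 tags (chr17:68456316-68458562). Its summit was 54204 bp from a listed start of PRKAR1A and 300 bp from that of WIPI1, an autophagy gene. The peak assigned to LOC107986820 (17.37-fold, 71 tags) lay 113 bp from the start of BET1, a SNARE gene of transport between endoplasmic reticulum and Golgi. Readthrough genes were hosts too: the peaks of EEF1E1-BLOC1S5 (15.36-fold, 294 tags) and MROH7-TTC4 (14.30-fold, 193 tags) lay 16 bp from a start of BLOC1S5-TXNDC5 and 91 bp from that of TTC4.

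Of the peaks without a listed start, 1 was above GPAM in fold enrichment. The highest fold enrichment of all deep intronic peaks was at LOC400867 (47.37-fold, 130 tags, chr21:38906810-38907861), whose host is not in the start table. EML2, a microtubule-associated protein gene, had 36.05-fold and 291 tags (chr19:45632154-45633457), 6644 bp from a listed start of the gene. SHANK1, a postsynaptic scaffold gene that is not in the start table, had 35.87-fold and 273 tags (chr19:50679027-50680366). STOX2, a winged helix gene, had 28.99-fold and 137 tags, 82367 bp from a start of its own. ZSWIM6 had 28.10-fold and 266 tags, 76622 bp from its own start. RNFT2, a RING finger membrane protein gene, had 25.85-fold and 683 tags (chr12:116818717-116820359), 61895 bp from the nearest listed start. LOC102724701 on chromosome 21 (20.07-fold, 198 tags), LOC101929475 (19.62-fold, 170 tags) and LOC105372437 (17.81-fold, 211 tags) were also among the 10 strongest. Like LOC400867 and SHANK1, these LOC hosts are not in the start table. An end of NAPSA was 616 bp from the LOC105372437 summit. For the 814 peaks without a listed start whose host is in the start table, the nearest listed start of any gene was a median of 24957.5 bp away.

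An end of another annotated gene lay within 1 kb of 215 deep intronic summits (15.02%, interval 13.2 to 17.0%), against 29.3% of all listed peaks. Either end of a gene counted, without regard to strand, so these overlap the starts of other genes described above. By type these were long noncoding RNA at 91, protein-coding genes at 60, pseudogenes at 66, microRNAs at 8 and small nucleolar RNAs at 2, and a peak can count under several. Peaks next to pseudogenes were close to the whole group. They had a median of 43.5 tags and 6.90-fold, against 40 tags and 6.94-fold over all deep intronic peaks. Of the 66, 9 reached 10-fold, against 13.1% of all deep intronic peaks. The 8 microRNA cases had a median of 4.445-fold and 138.5 tags, so they were lower in fold enrichment and higher in tags than the whole group. They ran from 3.47-fold at SLC12A7 next to MIR4635 to 8.42-fold at CTDSPL, where the 22 tags lay 37 bp from MIR26A1. The peak of DLEU2 had 220 tags and 4.62-fold, 171 bp from MIR3613.

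Host genes were long, since the rule requires more than 20 kb. Median host length was 105957 bp, with quartiles of 56806.5 and 217970 bp. The summits had a median distance of 24578 bp from the nearer end. The share of listed genes whose 1 listed peak was deep intronic went up with gene length, from 7.11% of 3770 genes of 20 to 50 kb to 22.5% of 1630 genes of 100 to 200 kb and 42.6% of 265 genes over 500 kb. The rule leaves out 10 kb at each end, which is a larger part of a shorter gene. How much of the rise is set by the rule was not tested. Genes with noncoding names (LINC, LOC, antisense and similar symbols) had higher shares than the others at each length, with 41.9% of 246 against 14.8% of 2076 at 50 to 100 kb, and 60.7% of 89 against 26.4% of 829 at 200 to 500 kb. Median tags were 48.5 at 10 to 15 kb from the nearer end and 30 beyond 200 kb, while the share with a start stayed between 15.1% and 20.3% in all distance ranges. The farthest summits were in DLG2, a synaptic scaffold gene (739911 bp from the nearer end, 27 tags, 7.06-fold), CTNNA3, an alpha catenin gene (739104 bp, 26 tags, 8.36-fold), LRP1B, a lipoprotein receptor-related gene (691980 bp, 25 tags, 7.89-fold), DPP10 (684461 bp, 148 tags, 4.05-fold) and GPC5, a glypican gene (684353 bp, 21 tags, 6.84-fold). DPP10 alone of these 5 had a listed start at the summit, 126 bp downstream of it. A listed start of DPP10-AS1, on the minus strand, was nearer to the same summit, at 52 bp. The longest hosts were RBFOX1, a neuronal splicing factor gene of 2473595 bp (26 tags, 8.42-fold), PTPRD, a receptor phosphatase gene (22 tags, 5.79-fold), DLG2, LRP1B and NRXN3, a neurexin gene (20 tags, 7.37-fold).

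Genes of cAMP signalling, the pathway upstream of CREB factors, were among the hosts. Of 22 listed adenylyl cyclase and cAMP phosphodiesterase genes over 20 kb, 8 had a deep intronic peak (36.4%, interval 17.2 to 59.3%). The share was 16.1% of all listed genes over 20 kb. The median length of the 22 was 197353 bp, and of all listed genes of 100 to 200 kb 22.5% had a deep intronic peak, inside that interval. The 8 had a median of 7.29-fold and 36 tags, against 6.94-fold and 40 tags over all deep intronic peaks, and none reached 10-fold, against 13.1% of all deep intronic peaks. ADCY2, an adenylyl cyclase gene, had 8.42-fold and 26 tags, PDE1C, a phosphodiesterase gene, 8.42-fold and 26 tags, ADCY10, the soluble cyclase gene, 7.62-fold and 78 tags, and PDE10A 7.60-fold and 37 tags. Of 20 protein kinase A, anchoring and cAMP exchange factor genes, 2 had one, PRKAR1A with the peak at the WIPI1 start and AKAP10, an anchoring protein gene (9.37-fold, 60 tags). Of 19 CREB and ATF family and coactivator genes over 20 kb there were 3. CREB5, a CREB family gene, had 14.97-fold and 349 tags (chr7:28408125-28410658), 3315 bp upstream of its nearest listed start, CRTC1, a CREB coactivator gene, 8.22-fold and 33 tags, and CREBBP, the CREB-binding acetyltransferase gene, 5.15-fold and 33 tags. Among 11 classical CRE target genes over 20 kb, 2 were hosts, NR3C1 and IRS2, an insulin receptor substrate gene (8.42-fold, 63 tags).

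Growth signalling lists had deep intronic peaks at 13.0% to 28.6% of their genes over 20 kb, against 16.1% of all listed genes of that length. Of 30 RAS and MAPK pathway genes 6 had one (interval 7.71 to 38.6%), 3 of them past 10-fold, and 2 of the 6 summits were over 20 kb from both ends. GRB2, the adaptor that couples receptors to RAS, had 17.52-fold and 86 tags (chr17:75393266-75394507), 11761 bp from a start of its own. An end of LOC124904060 was 146 bp from the GRB2 summit. MAPK9, a JNK gene, had 10.19-fold and 77 tags. Of 41 receptor tyrosine kinase genes 10 had one (24.4%), led by IGF1R (10.89-fold, 43 tags), followed by EPHB2 (8.92-fold, 35 tags) and FLT1 (8.82-fold, 37 tags). WNT genes had 10 of 35 (28.6%), of which 4 were over 20 kb from both ends, and none reached 10-fold. SFRP1, a secreted WNT antagonist gene, had 8.73-fold and 24 tags. ZNRF3, a ubiquitin ligase that removes WNT receptors, had 7.53-fold and 45 tags, and WLS, the WNT secretion carrier, 7.37-fold and 24 tags. Of 26 TGF-beta and SMAD genes 4 had one (15.4%), with TGFBR3, a co-receptor gene, at 9.91-fold and 30 tags and SMAD3 at 7.14-fold and 49 tags. Ras and Rap regulators had 3 of 23 (13.0%), led by RASGRF1 (8.60-fold, 39 tags).

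Among adhesion, channel and matrix genes the share with a deep intronic peak ran from 16.9% for motor and cytoskeletal genes to 38.5% for genes at common fragile sites, against 16.1% of all listed genes over 20 kb. Synaptic adhesion genes had a deep intronic peak at 18 of 47 (38.3%, interval 24.5 to 53.6%), with a median of 30.5 tags, and their median length was 685312 bp. ADGRB3, an adhesion receptor gene, had 16.06-fold and 44 tags and was the 1 past 10-fold. Genes at common fragile sites had one at 10 of 26 (38.5%), with a median of 26.5 tags and none past 10-fold. Their median length was 1153920 bp. Of all 265 listed genes over 500 kb, 42.6% had a deep intronic peak, so neither list was above genes of such length. Ion channels and neurotransmitter receptors had 36 of 143 (25.2%, interval 18.3 to 33.1%), with a median of 47 tags against 40 over all deep intronic peaks. The median length of the 143 was 103069 bp. Of all listed genes of 100 to 200 kb 22.5% had a deep intronic peak, inside that interval. The list was led by GABRB2, a GABA receptor gene (11.58-fold, 29 tags), and GRM8 (11.33-fold, 45 tags). Receptor phosphatases had 5 of 15, and cadherins and catenins 7 of 25, with CTNND2 at 10.00-fold and 24 tags. Solute carriers had 32 of 185 (17.3%), led by SLC12A2, the sodium-potassium-chloride cotransporter gene (12.27-fold, 44 tags, 161 bp from the pseudogene POGLUT2P1). Collagens, laminins, integrins and matrix proteases had 15 of 78 (19.2%, interval 11.2 to 29.7%), led by COL15A1 (12.93-fold, 73 tags), and motor and cytoskeletal genes 14 of 83 (16.9%), led by KIF16B (9.47-fold, 24 tags).

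Chromatin modifiers had peaks of more tags than most members, with 11 hosts of 85 (12.9%), a median of 169 tags and 5.30-fold, and a listed start at 6 of the 11. KDM4C and JMJD1C, a demethylase family gene (5.63-fold, 337 tags, 58 bp upstream of a start), were of this kind, and ARID1B, a chromatin remodelling subunit gene, was not (10.04-fold, 50 tags). Of 17 intestinal epithelial genes over 20 kb, 4 were hosts, among them EPHB2, HNF4A (6.12-fold, 42 tags) and ST14 (4.96-fold, 65 tags). Markers of other cell types were hosts at 2 of 15 for neurons, among them RBFOX1, 1 of 5 for lymphocytes, PTPRC (6.88-fold, 56 tags), 1 of 4 for muscle and fibroblasts, MYH11 (5.94-fold, 57 tags), and 0 of 1 for hepatocytes. The interval of each of these cell type lists, the intestinal one included, held the 16.1% of all listed genes over 20 kb. Expression was not measured, so these counts do not check the identity of the cells.

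**Figure D5:**
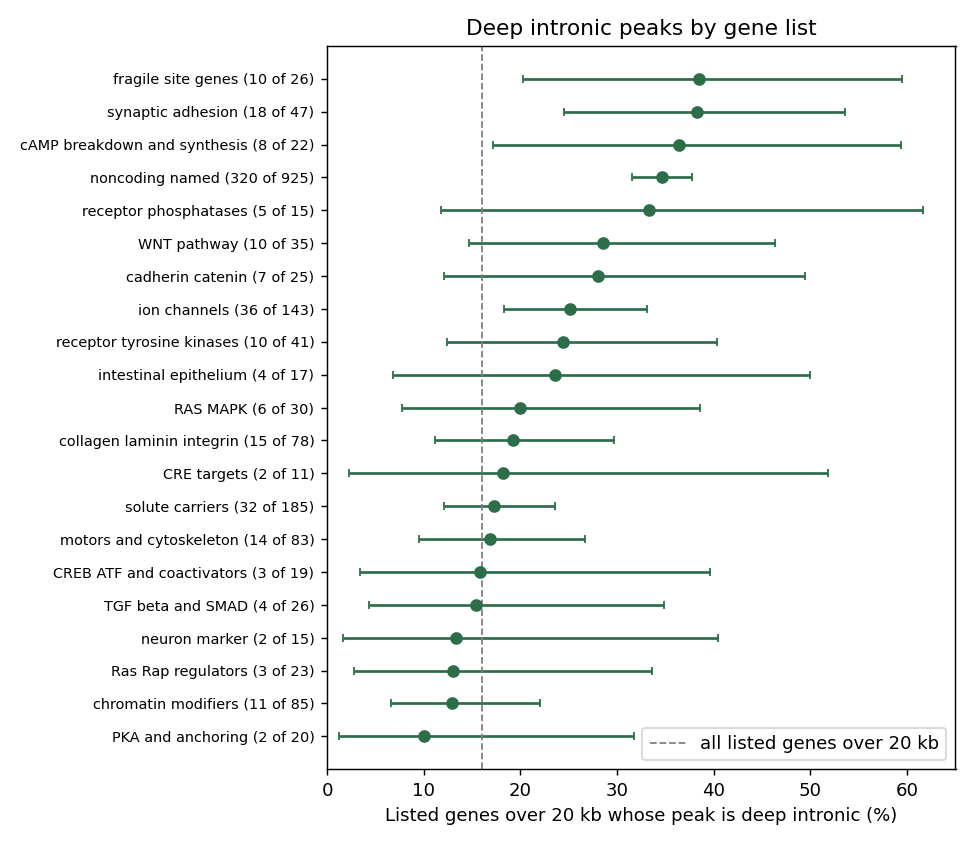
Share of listed genes over 20 kb whose listed peak is deep intronic (horizontal axis, percent) for 21 gene lists with at least 10 such genes, with exact 95% intervals over genes, the counts in the labels and the 16.1% of all listed genes over 20 kb as a dashed line. Lists differ in gene length. Fragile site and synaptic adhesion genes are highest, at 38.5% and 38.3%. Their median lengths are over 500 kb, and of all listed genes over 500 kb the share is 42.6%.

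Very wide peaks were a small separate set with low fold enrichment. The 18 deep intronic peaks over 5 kb long had a median of 694.5 tags and 4.01-fold, and none reached 10-fold. The 5 longest were at PLEC (26948 bp, 2786 tags, 6.70-fold), PLXNB2, a plexin receptor gene (19940 bp, 1757 tags, 3.27-fold), JAG2, a Notch ligand gene (18779 bp, 1545 tags, 3.85-fold), MLLT1 (17633 bp, 1149 tags, 4.33-fold) and WDR86 (16186 bp, 1567 tags, 5.25-fold). The same 5 had the most tags. A peak this wide covers a large part of its host, so that its summit alone decides its class.

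At the 10 kb limit, the nearest peaks inside were those of FLCN (10040 bp, 61 tags, 5.03-fold), LOC105378740 (10095 bp, 37 tags, 5.30-fold) and FGD2 (10104 bp, 21 tags, 8.95-fold). The nearest intronic peaks outside were those of RNF43 (9999 bp, 50 tags, 7.25-fold), VIPR2 (9995 bp, 150 tags, 6.27-fold) and CPLX4 (9968 bp, 89 tags, 6.22-fold). Deep intronic peaks made up 7.52% of the listed genes over 20 kb on chromosome X, where there were 17, and between 12.03% (chromosome 19) and 20.8% (chromosome 21) on the autosomes. The median distance to the next listed peak was 84727 bp, and 21 members had one within 10 kb. With 1 peak per gene name and summits over 10 kb inside the host, few close neighbours can be listed. The same distances were not measured for other classes of peaks. Of the 1039 hosts with a known strand, 141 (13.6%) had another listed peak within 1 kb of the outer 5′ end. The table gives 1 peak per gene name, so these genes may have further peaks that it does not list.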

How the data were processed

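HCT116 cells with 3xFlag-tagged ATF1 gave 1 ChIP library, and 1 input library was not used here. The submitters' processing notes name hg38, Bowtie2, bedtools and CASAVA. Which peak caller, control and annotation were used is not stated. Per the file headers, the deposited tags are counts per peak, fold enrichment is a ratio and the score has no stated basis. The lowest deposited fold enrichment is 3. A further 1 line has no position and was left out.

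Distances were taken from the summit to the table's gene ends. Names were matched within a chromosome to RefSeq (GRCh38.p14) by current symbol (1272 members) or a unique older name (56), with 103 unmatched. The start table holds 35097 windows of 27305 genes and none on chromosome 8. Motifs were searched on both strands. The functions were checked on simulated positions and sequences. Medians and shares were described with exact intervals and no test. Members and the 25 gene lists were chosen with earlier results of these data known. Named genes were the strongest by fold enrichment, those with most tags, longest peaks, farthest summits and longest hosts, up to 4 per list, and those nearest the limit. The strongest within each start group and the microRNA cases were added after their values were seen. Some members are not reported here. Windows, thresholds, gene ends and classes were varied. Python 3.11.15, numpy 2.4.6, pandas 2.3.3, scipy 1.17.1 and matplotlib 3.10.9 were used.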

Additional observations from a re-analysis of the deposited data

How the results depend on the processing

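The number of deep intronic peaks was 2087 with a distance above 5 kb, 877 above 20 kb and 333 above 50 kb. Median tags were 45 above 5 kb and 32 above 50 kb, and median length was 1045, 965 and 917 bp above 5, 20 and 50 kb. With peaks of at least 5-fold, the medians were 7.37-fold, 36 tags and 949 bp, and 15.6% reached 10-fold. Without members near another gene's end they were 37.5 tags and 972 bp, and with intronic and exonic peaks together 46 tags and 1034.5 bp. The share near another gene's end was 11.9% within 500 bp, 25.5% within 5 kb and 4.19% for protein-coding genes. The share with a listed start was 12.8% within 250 bp, 22.6% within 5 kb, 21.7% for hosts in the start table and 15.8% for peaks of at least 5-fold. CRE half-sites were in 32.5% of starts within 1 kb. Lists held 348 members above 20 kb, against 527, and 9 single lists fell by more than 1.5 times there. The other 34 of 58 values stayed within the interval of the reported value (medians and shares) or within 1.5 times it (counts). Alternatives for listed starts and half-sites were chosen after seeing the data. Motif searches around summits away from starts were not run, for want of a genome sequence. No paired analysis was possible because each group has 1 sample. Read depth is unknown, so a peak's absence does not show absence of binding.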

Other observations

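Fold enrichment repeated certain values among the deep intronic peaks with the fewest tags, although the 828 under 50 tags had 288 distinct values in all. Of the 442 with under 30 tags, 59.5% had a fold enrichment within 0.006 of a whole multiple of 0.5263, the step that the largest share of members under 50 tags followed, where the tolerance spans 2.28% of a step. The share was 13.2% at 30 to 49 tags, 2.75% at 50 to 99 and 1.54% at 200 tags or more. The most frequent values were 7.37-fold (40 members), 7.89-fold (38) and 8.42-fold (37), and next to each other these differ by 1 step. ADCY2, PDE1C, RBFOX1 and ITGA9, an integrin gene, all stood at 8.42-fold. The step was found in these same values. Of the 828 members under 50 tags 37.9% were on it, and of 2282 other listed peaks under 50 tags 28.3%.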
